A study of Mus musculus with 9 samples.

Results

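The eosinophil genes studied here were Prg2, Prg3, Epx, Il5ra, Ccr3, Ear1, Ear2 and Siglecf, and their probes were found by matching the accession printed for each array probe to RefSeq gene records. Of the 8 genes listed, 7 were matched, by 8 probes in all, among 16535 genes named on the array. Ccr3 had a pair of probes, the other matched genes had a single probe each, and Ear2 was not matched, so its expression is not analysed here. All 7 matched genes passed the filter on dim probes. The cells were FDCPmix, a line of multipotent blood progenitors from mouse bone marrow that renews itself in IL-3. The 3 groups differed in the lentivirus the cells received, which delivered a hairpin targeting Gata2 (Gata2 shRNA), a hairpin targeting Pu.1 (Pu1 shRNA) or no hairpin (empty vector, EV), all while the culture was self-renewing. After 5 days, live cells with GFP from the virus were collected by sorting, so the EV controls were infected and sorted too. Each of the 9 samples supplied total RNA for 1 single-color Agilent whole mouse genome array (3 arrays per group). All samples came from a single line, and p-values measure the spread between these triplicates.

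Eosinophils are granulocytes whose maturation from bone marrow progenitors depends on IL-5 and on GATA1, with PU.1 and C/EBP factors also needed for the granulocyte fate. Their specific granules hold a crystalline core of major basic protein, made from Prg2, surrounded by eosinophil peroxidase (Epx) and ribonucleases of the Ear family, and Prg3 encodes a homolog of major basic protein. At the cell surface, Il5ra encodes the ligand-binding chain of the IL-5 receptor, Ccr3 the receptor for eotaxins, and Siglecf a sialic acid-binding inhibitory receptor used to identify mouse eosinophils.

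The upstream sequences of Prg3, Epx and Siglecf, which were called lower in Pu1 shRNA cells, and of Ccr3, which was not, are given first. They were chosen by these expression results, and Il5ra and Ear1 were not called lower either. RefSeq (assembly GRCm38.p6) provided a promoter window for 7 of the 8 genes, all but Prg2, and the 250 bases before the start were read along the strand of each gene. Both strands were searched for AGATAA and TGATAA, forms of the motif bound by GATA factors, and for GGAAGT, a form of the ETS motif bound by PU.1. Capitals mark every match, and a match on the opposite strand appears as its reverse complement (TTATCA or ACTTCC). The window of Prg3 is chr2:84987965-84988214 on the plus strand, that of Epx chr11:87875537-87875786 on the minus strand, that of Siglecf chr7:43351091-43351340 on the plus strand and that of Ccr3 chr9:124021721-124021970 on the plus strand.
Prg3: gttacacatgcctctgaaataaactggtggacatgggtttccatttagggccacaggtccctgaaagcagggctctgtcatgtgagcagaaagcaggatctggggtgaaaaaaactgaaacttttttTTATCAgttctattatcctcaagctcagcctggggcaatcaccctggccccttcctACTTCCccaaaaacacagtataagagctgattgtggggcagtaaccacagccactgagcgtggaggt
Epx: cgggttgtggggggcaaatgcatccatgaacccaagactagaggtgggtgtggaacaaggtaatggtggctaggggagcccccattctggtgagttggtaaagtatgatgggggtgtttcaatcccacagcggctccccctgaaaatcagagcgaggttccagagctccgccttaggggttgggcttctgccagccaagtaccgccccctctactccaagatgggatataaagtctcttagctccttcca
Siglecf: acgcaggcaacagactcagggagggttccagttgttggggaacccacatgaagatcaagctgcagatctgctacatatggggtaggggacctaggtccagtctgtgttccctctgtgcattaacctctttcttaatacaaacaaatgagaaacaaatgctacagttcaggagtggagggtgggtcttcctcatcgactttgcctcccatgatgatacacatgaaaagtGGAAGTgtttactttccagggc
Ccr3: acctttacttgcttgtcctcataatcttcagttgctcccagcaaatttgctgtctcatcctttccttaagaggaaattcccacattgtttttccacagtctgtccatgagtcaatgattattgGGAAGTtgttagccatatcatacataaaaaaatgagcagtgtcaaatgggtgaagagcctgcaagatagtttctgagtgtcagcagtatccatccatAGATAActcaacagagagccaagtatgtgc

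The Prg3 window held TGATAA on the opposite strand, beginning 123 bases before the start, and GGAAGT on the opposite strand at 67 bases. Siglecf held GGAAGT at 22 bases, and Ccr3 held GGAAGT at 127 bases and AGATAA at 30 bases. The Epx window held no match to any of these motifs. Il5ra held AGATAA at 74 bases, and the Ear1 and Ear2 windows held no match. No 2 matches overlapped. Among all 32851 RefSeq windows of this length, 9.99% held AGATAA, 7.94% held TGATAA and 19.7% held GGAAGT, so single matches of this kind are common. The Ear1 and Ear2 windows were the same at 246 of 248 bases once shifted by 2 bases. This compares the upstream windows only, and the transcribed sequences were not compared. These matches describe the sequence and were not tested against the expression values.

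The share of spots well above background was 80.44% to 89.57% per array, and no spot was saturated. Levels below are log2 processed intensities from which the 75th percentile of their own array was subtracted, so 0 is that percentile, and levels were compared between arrays for a given probe. Each of the 3 slides held 1 array of every group, and the first principal component (36.7% of the variance) followed the slide while the second (28.3%) followed the group. EV array 3 correlated least with the rest (mean r = 0.96, against 0.971 or more for the other arrays). In cells with Gata2 shRNA the Gata2 level was 2.91 to 3.57, against 4.48 to 5.01 in EV, a fall of 3.1-fold (adjusted p = 0.00398). Spi1, which encodes PU.1, stood at -3.67 to -3.55 with Pu1 shRNA, against -2.09 to -1.69 in EV, a fall of 3.33-fold (adjusted p = 0.0018), or 1.74 on the log2 scale. The size of this knockdown depended on the processing, with log2 differences of -1.0 after normexp background correction and -1.27 in the deposited values, and its call held under all 20 alternatives. Spi1 rose 2.58-fold in Gata2 shRNA cells (adjusted p = 0.00129).

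Transcripts of the granule proteins Prg2 and Epx moved in opposite directions with the 2 hairpins. In Gata2 shRNA cells Prg2 and Epx rose, by 3.38-fold and 3-fold, and 0 of the 7 eosinophil genes fell (0 at an unadjusted p under 0.05, and 0 under each alternative). In Pu1 shRNA cells Prg2, Prg3, Epx and Siglecf fell, by between 2.35-fold and 5.45-fold, and 0 rose (1, Ccr3, at an unadjusted p under 0.05, and 0 under each alternative). Calls rest on limma, with p-values adjusted by Benjamini-Hochberg across the tested probes and a threshold of 0.05. Against EV, 2 of the 7 genes were called higher with Gata2 shRNA, where 4.05% of all 15808 genes tested were called higher and 3.07% lower. With normexp correction, quantile normalization or the deposited log2 values, 4 of the 7 were called higher. Each of these settings added Prg3, together with Siglecf under normexp correction and with Ear1 under the others. With Pu1 shRNA, 4 of the 7 were called lower, where 2.12% of all genes were called lower and 1.41% higher. The 7 genes were chosen with earlier results of these data known, so the shares here and below are no test of the list. The median change of the 7 genes was 0.79 on the log2 scale with Gata2 shRNA, beside -0.11 for all genes, and -1.23 with Pu1 shRNA, beside -0.05 for all genes. Both comparisons use the same 3 EV arrays. The arrays measure sorted cells in bulk, so a change in the number of cells of a type and a change in RNA per cell cannot be told apart.

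Prg2 encodes major basic protein, the toxic cationic protein of the granule core. Its level on the EV arrays was 1.57, 0.96 and 1.50 (mean 1.34 ± 0.33, SD, n = 3). With Gata2 shRNA it was 3.30, 2.83 and 3.17 (mean 3.10 ± 0.24, SD, n = 3), and with Pu1 shRNA it was -1.01, -0.91 and -1.38 (mean -1.10 ± 0.25, SD, n = 3). Every Gata2 shRNA array lay above every EV array and every Pu1 shRNA array lay below, with no overlap. The difference from EV was 1.76 ± 0.22 (SE) on the log2 scale with Gata2 shRNA (adjusted p = 0.00229, limma) and -2.45 ± 0.22 with Pu1 shRNA (adjusted p = 0.00186, limma). Both calls held under all 21 alternative settings run for each.

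Epx encodes eosinophil peroxidase, the heme enzyme of the granule matrix that makes hypobromous acid. Its EV levels were -0.35, -0.73 and -0.12 (mean -0.40 ± 0.31, SD, n = 3). The Gata2 shRNA arrays read 1.27, 0.88 and 1.40 (mean 1.18 ± 0.27, SD, n = 3), and the Pu1 shRNA arrays -2.34, -2.61 and -2.33 (mean -2.42 ± 0.16, SD, n = 3). As with Prg2, the 3 groups did not overlap, and the order was Gata2 shRNA, EV, Pu1 shRNA. Epx rose by 1.58 ± 0.21 (SE, log2) with Gata2 shRNA (adjusted p = 0.00295) and fell by 2.02 ± 0.21 with Pu1 shRNA, a 4.06-fold fall (adjusted p = 0.00298, limma). These calls also held under all 21 alternatives. The size of the Epx difference with Pu1 shRNA moved with the processing, to -1.505 after normexp background correction and -1.705 in the deposited values.

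Prg3, the homolog of major basic protein, had the same order of groups. EV arrays read -1.64, -2.05 and -1.21, Gata2 shRNA arrays -0.87, -0.96 and -0.70, and Pu1 shRNA arrays -2.56, -3.15 and -2.86. No group overlapped another. The difference between Gata2 shRNA and EV was 0.79 ± 0.24 (SE, log2), which did not pass the test (adjusted p = 0.129, 95% interval 0.24 to 1.33). It did pass under 5 of 21 alternatives, among them without EV array 3 (1.00, adjusted p = 0.049992). With Pu1 shRNA Prg3 fell by 1.23 ± 0.24 (adjusted p = 0.0356, limma), and this call was lost under 11 of 21 alternatives, with adjusted p up to 0.141. Leaving out any single array other than EV array 2 was enough to lose it, with changes of -1.38 to -1.02 in those fits. After normexp background correction the difference was -0.81.

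**Figure D1:**
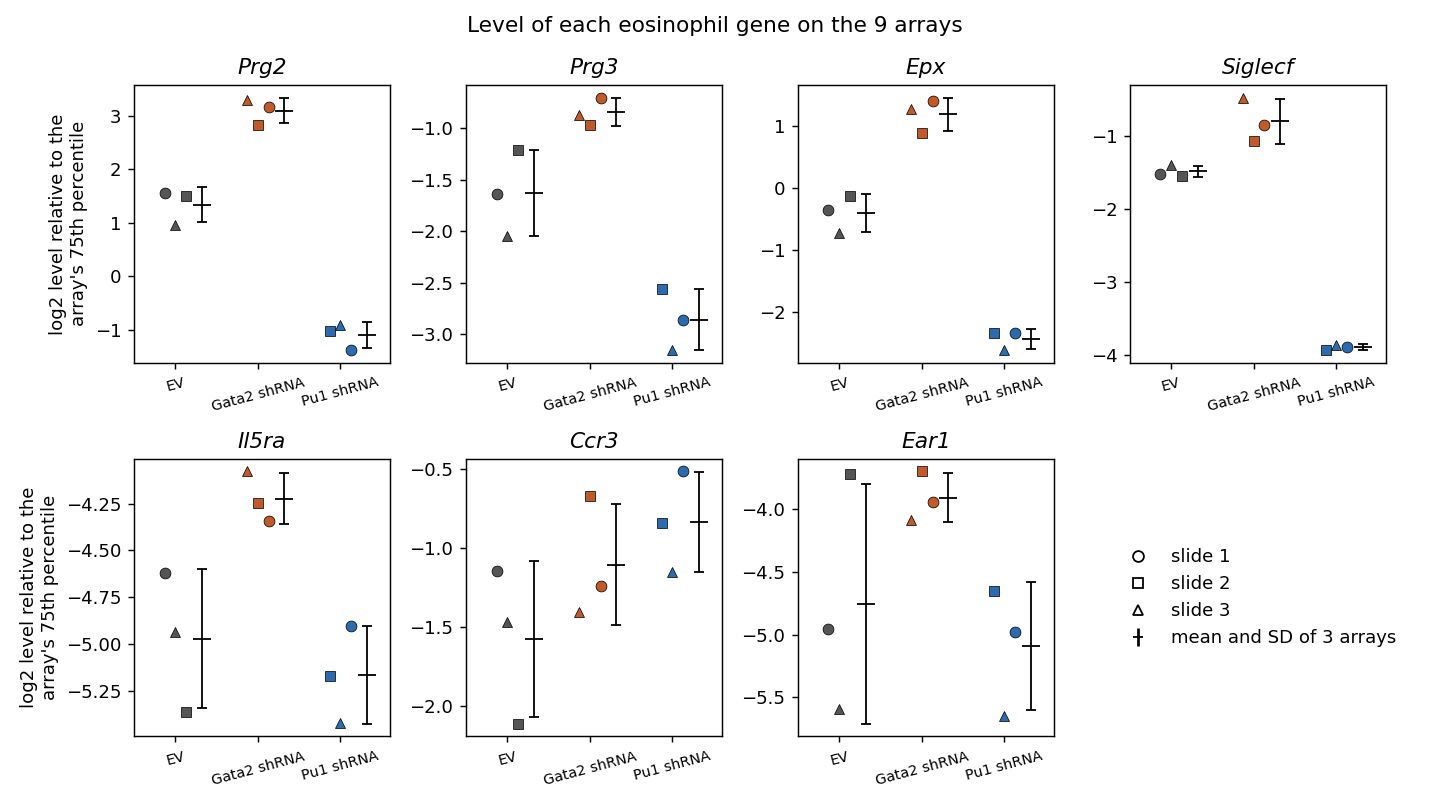
Log2 level of each measured eosinophil gene (y axis, relative to the array's 75th percentile, with a scale of its own in each panel) on the EV, Gata2 shRNA and Pu1 shRNA arrays. Points are single arrays, shaped by slide, and the bars give the mean and SD of 3 arrays. Prg2, Prg3, Epx and Siglecf fall into 3 separate groups, with Prg2 at 2.83 or more with Gata2 shRNA and at -0.91 or less with Pu1 shRNA, while the groups of Ccr3 overlap.

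Siglecf, the sialic acid receptor, varied little among the 3 EV arrays and among the 3 Pu1 shRNA arrays. Its level was -1.51, -1.40 and -1.54 on the EV arrays (mean -1.48 ± 0.08, SD, n = 3) and -3.93, -3.86 and -3.88 on the Pu1 shRNA arrays (mean -3.89 ± 0.04, SD, n = 3). The Pu1 shRNA arrays were thus all more than 2 log2 units below the lowest EV array. The fall was 2.41 ± 0.17 (SE, log2), or 5.31-fold (adjusted p = 0.000926, limma), and the call held under all 21 alternatives, although normexp background correction reduced the difference to -1.43. Gata2 shRNA arrays read -0.47, -1.07 and -0.85, all above EV. That difference, 0.69 ± 0.17, did not pass (adjusted p = 0.0587, 95% interval 0.30 to 1.07) but passed with the slide as a block (adjusted p = 0.0252), with normexp background correction (0.57, adjusted p = 0.0312) and with only probes well above background on all arrays (adjusted p = 0.0418).

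Neither the cytokine nor the chemokine receptor passed the test against EV with either hairpin. Il5ra, the IL-5 receptor chain that gives eosinophil progenitors their response to IL-5, was dim, and 1 EV array did not read it well above background. It stood at -4.62, -4.93 and -5.36 in EV, at -4.08, -4.25 and -4.34 with Gata2 shRNA and at -5.17, -5.42 and -4.90 with Pu1 shRNA. The Gata2 shRNA arrays lay above all others, and the EV and Pu1 shRNA arrays overlapped. The difference between Gata2 shRNA and EV was 0.75 ± 0.22 (SE, log2, adjusted p = 0.114, 95% interval 0.25 to 1.25). Its size moved with the processing, from 0.17 after normexp background correction and 0.26 in the deposited values to 1.20 under quantile normalization, without passing in any of 20 alternatives. That between Pu1 shRNA and EV was -0.19 (adjusted p = 0.923, 95% interval -0.70 to 0.31), and it had the opposite sign under quantile normalization (0.29).

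Ccr3, which draws eosinophils toward eotaxins, was measured by a pair of probes that both read well above background on all 9 arrays. The brighter probe gave -1.14, -1.47 and -2.11 in EV, -1.40, -0.67 and -1.24 with Gata2 shRNA and -0.84, -1.15 and -0.51 with Pu1 shRNA. Its groups overlapped in every comparison. Its differences from EV were 0.47 with Gata2 shRNA (adjusted p = 0.606, 95% interval -0.22 to 1.17) and 0.74 with Pu1 shRNA (adjusted p = 0.356, 95% interval 0.05 to 1.44). Single arrays moved these values, to 0.20 without EV array 3 and 0.25 without Gata2 shRNA array 2 in the first comparison and to 0.47 without EV array 3 in the second. The other probe gave -0.05 and 0.01 in the same comparisons (adjusted p = 0.985 and 1), so it did not repeat these positive differences. Its 95% interval with Pu1 shRNA (-0.755 to 0.77) overlapped that of the brighter probe, and a difference between the probes was not tested. Of the 7 genes, only Ccr3 had a positive difference from EV with Pu1 shRNA, and that difference did not pass the test.

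Ear1 encodes a secreted ribonuclease of the eosinophil granule. Its probe may also read other Ear copies of similar sequence, which was not checked, so its values are uncertain. It read -4.96, -5.60 and -3.72 in EV, -4.09, -3.70 and -3.94 with Gata2 shRNA and -4.65, -5.65 and -4.98 with Pu1 shRNA. EV array 3 sat among the Gata2 shRNA arrays and apart from EV arrays 1 and 2. Neither difference from EV passed the test, at 0.85 ± 0.45 (SE, log2) with Gata2 shRNA (adjusted p = 0.481, 95% interval -0.19 to 1.89) and -0.33 with Pu1 shRNA (adjusted p = 0.952, 95% interval -1.38 to 0.71). The Gata2 shRNA difference passed under quantile normalization (1.04, adjusted p = 0.0194) and in the deposited values (0.43, adjusted p = 0.046). It was 0.43 without EV array 2, 1.37 without EV array 3 and 0.24 after normexp background correction, none of which passed. With Pu1 shRNA the difference was -0.75 without EV array 2 and -0.06 without Pu1 shRNA array 2, and it turned to 0.19 without EV array 3.

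Other ribonucleases of the same superfamily were counted from a list of 12 names, in which Ear11 and Ear5 are older names of Rnase2a and Rnase2b. Of these, 5 were matched and 4 were tested, and with Gata2 shRNA 3 rose. Ear10 was dim, read well above background on 1 of 3 EV arrays, 2 of 3 Gata2 shRNA arrays and 0 of 3 Pu1 shRNA arrays, and it passed in neither comparison with EV (adjusted p = 0.619 and 0.493). Ear6 read -2.94, -3.58 and -2.34 in EV, 0.54, 0.05 and 0.57 with Gata2 shRNA and -4.42, -4.80 and -5.38 with Pu1 shRNA. It rose by 3.34 on the log2 scale with Gata2 shRNA (adjusted p = 0.000896) and fell 3.77-fold with Pu1 shRNA (adjusted p = 0.0289), a fall that lost its call under 11 of 20 alternatives, among them each single array left out except EV array 2. The Ear6 fall was -0.59 on the log2 scale after normexp background correction (adjusted p = 0.176) and -0.86 in the deposited values (adjusted p = 0.0444), in place of -1.92. Rnase2a, which encodes an eosinophil-associated ribonuclease, rose 8.83-fold with Gata2 shRNA (adjusted p = 6.34e-05) and differed by -0.30 (log2) with Pu1 shRNA (adjusted p = 0.72). Rnase6, a ribonuclease also made by monocytes and macrophages, rose 2.21-fold (adjusted p = 0.00374) with Gata2 shRNA and fell 3.94-fold with Pu1 shRNA (adjusted p = 0.00132), a log2 difference of -1.98 that was -1.27 after normexp correction. The median change of the 3 ribonucleases read well above background on all arrays was 3.14 with Gata2 shRNA and -1.92 with Pu1 shRNA.

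**Figure D2:**
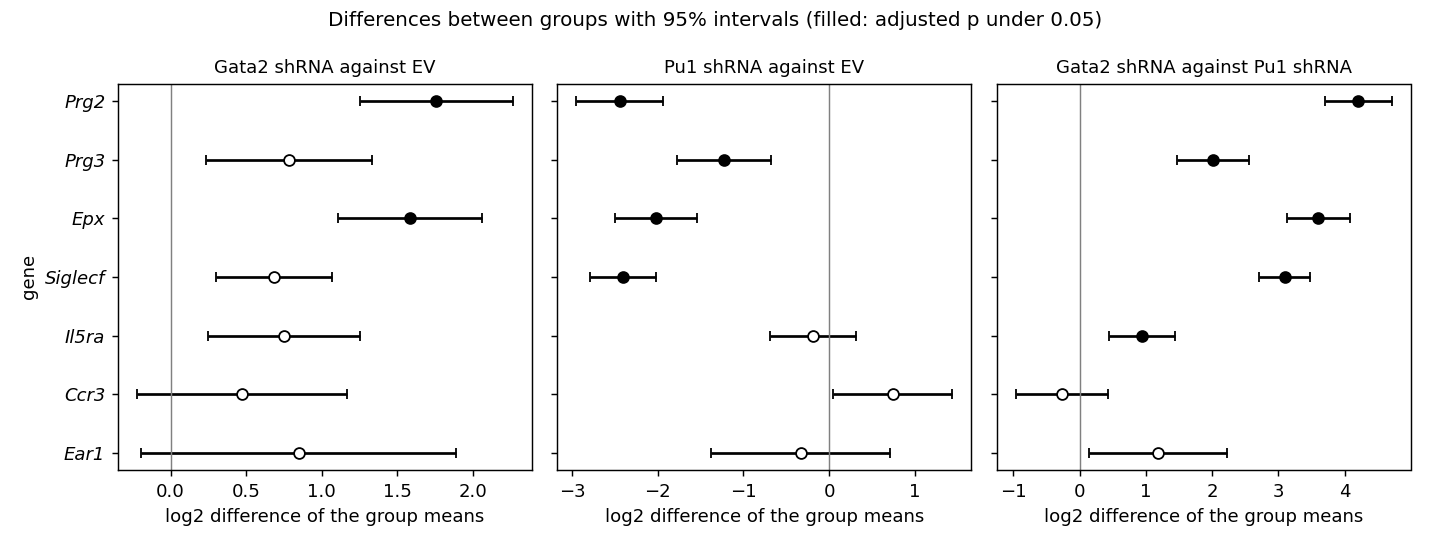
Log2 differences between group means (x axis) for each measured eosinophil gene (y axis) in the 3 comparisons, with 95% intervals from limma. Filled points passed the adjusted p threshold of 0.05, as Prg2 (1.76) and Epx (1.58) did for Gata2 shRNA against EV and Prg2 (-2.45), Siglecf (-2.41), Epx (-2.02) and Prg3 (-1.23) did for Pu1 shRNA against EV.

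Within slides, each of which gives 1 difference per gene and hairpin, the called genes kept their direction. Prg2 differed from the EV array of its slide by 1.33 to 2.34 with Gata2 shRNA and by -2.95 to -1.88 with Pu1 shRNA. For Epx these ranges were 1.00 to 1.999 and -2.21 to -1.87. Siglecf ranged from 0.47 to 0.93 with Gata2 shRNA and from -2.46 to -2.37 with Pu1 shRNA, the narrowest range of the 4 genes called with Pu1 shRNA. Prg3 ranged from 0.25 to 1.18 and from -1.35 to -1.11. Ccr3 did not keep a sign with Gata2 shRNA (-0.10 to 1.45) and Il5ra did not with Pu1 shRNA (-0.49 to 0.19). With the slide as a block, the adjusted p was 0.00756 for Prg2 and 0.00506 for Epx with Gata2 shRNA. With Pu1 shRNA it was 0.00574 for Prg2, 0.0194 for Prg3, 0.00556 for Epx and 0.00196 for Siglecf.

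**Figure D3:**
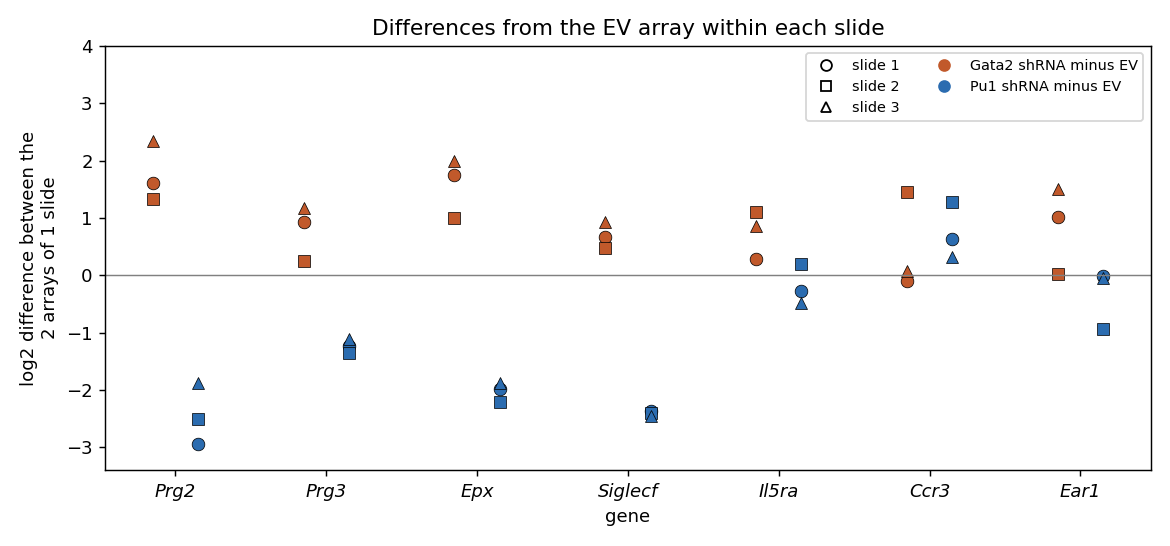
Log2 difference (y axis) between the hairpin array and the EV array of the same slide for each eosinophil gene (x axis), with 1 point per slide and color by hairpin. All 3 slides place Prg2, Prg3, Epx and Siglecf above 0 with Gata2 shRNA and below 0 with Pu1 shRNA, whereas Ccr3 ranges from -0.10 to 1.45 with Gata2 shRNA.

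Overlap between groups was counted apart from the calls. With Gata2 shRNA, Prg2, Prg3, Epx, Il5ra and Siglecf had every array above every EV array, which is 5 of 7 genes, where 8.94% of all genes had this pattern. With Pu1 shRNA, Prg2, Prg3, Epx and Siglecf had every array below EV, 4 of 7, where 12.1% of all genes did. The first set includes 3 genes whose difference did not pass the test.

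The hairpins were also set directly against each other. Between Gata2 shRNA and Pu1 shRNA, 5 of the 7 genes were higher with Gata2 shRNA, where 6.55% of all genes were called higher and 5.82% lower, and 6 of 7 did not overlap, where 13.8% of all genes were higher without overlap. Prg2 was 18.4-fold higher (adjusted p = 9.55e-06) and Epx 12.2-fold higher (adjusted p = 1.64e-05). Siglecf was 8.55-fold higher (adjusted p = 1.13e-05) and Prg3 4.04-fold higher (adjusted p = 0.000957). With normexp background correction the Siglecf difference was 2.01 on the log2 scale in place of 3.10. For Epx it was 3.01 in place of 3.605, and for Prg3 1.47 in place of 2.015. Il5ra was 1.92-fold higher (adjusted p = 0.0304), a call that was lost under 11 of 20 alternatives, with a difference of 0.26 in place of 0.94 after normexp background correction. Leaving out any Gata2 shRNA array, or Pu1 shRNA array 1 or 2, also lost it, at differences of 0.81 to 1.00. Ear1 differed by 1.18 without passing (adjusted p = 0.191, 95% interval 0.14 to 2.22), and passed under 5 of 21 alternatives. These were the slide as a block (adjusted p = 0.0356), quantile normalization (0.00745), the deposited values (0.0118, at a difference of 0.52), only the groups compared (0.0432) and without EV array 3 (0.0412). After normexp background correction the Ear1 difference was 0.33. Ccr3 differed by -0.27 (adjusted p = 0.895, 95% interval -0.97 to 0.42).

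The partners of these receptors were counted from a list of IL-5, IL-3 and GM-CSF, their receptor chains, and chemokines that CCR3 binds. With Gata2 shRNA 2 of 12 tested genes rose and 1 fell, and the median change was -0.12, or 0.10 over the 10 read well above background on all arrays. Csf2ra, the GM-CSF receptor chain that pairs with the common beta chain, rose 5.84-fold (adjusted p = 5.02e-05), and Ccl5, a chemokine ligand of CCR3, rose 6.84-fold (adjusted p = 0.00011). Csf2rb2, the beta chain specific to IL-3, fell 1.93-fold (adjusted p = 0.0353) and lost its call under 10 of 20 alternatives. The arrays whose single removal did so were EV arrays 2 and 3 (adjusted p = 0.121 and 0.0982), Gata2 shRNA arrays 2 and 3 (0.156 and 0.136) and each Pu1 shRNA array (0.0624 to 0.0671). With Pu1 shRNA 0 of the 12 passed in limma (4 at an unadjusted p under 0.05, and at most 1 in each direction under any alternative), and the median change was -0.42. Il5 itself was dim and differed from EV by -0.57 with Gata2 shRNA (adjusted p = 0.708) and by -0.32 with Pu1 shRNA (adjusted p = 0.951).

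Of 14 tested regulators of the eosinophil and neighboring lineages, the targets Gata2 and Spi1 included, 6 rose and 3 fell with Gata2 shRNA (4 to 6 and 1 to 4 under the alternatives). With Pu1 shRNA 1 rose, 3 fell, Spi1 among them, and 10 did not pass (0 to 2 higher and 1 to 4 lower under the alternatives). With Gata2 shRNA, Irf8, a factor of the monocyte and eosinophil lineages, rose by 4.36 on the log2 scale (adjusted p = 3.67e-06). A dimmer Irf8 probe rose by less, from a mean of -2.18 in EV to 0.15. Gfi1, a repressor needed for granulocytes, rose by 2.04 (adjusted p = 0.000465), and Id2, an inhibitor of E proteins, rose by 1.74 (adjusted p = 0.000436). Trib1, a pseudokinase that acts on C/EBP alpha, rose by 1.41 (adjusted p = 0.0121) and missed the threshold without Gata2 shRNA array 2 or 3 (adjusted p = 0.0559 and 0.0543). Beside Gata2 itself, the genes that fell were Gata1, which eosinophil maturation requires, by 1.11 (adjusted p = 0.0111), and Zfpm1, which encodes the GATA1 partner FOG-1, by 0.88 (adjusted p = 0.00561). Both missed the threshold when arrays were scaled to their median (adjusted p = 0.076 and 0.08). The fall of Gata1 was opposite in direction to the changes of Prg2 and Epx, and a link between them was not tested. With Pu1 shRNA, Id2 rose by 1.13 (adjusted p = 0.011). The Id2 call was lost under 5 of 20 alternatives (adjusted p up to 0.0687), among them array-median scaling and the removal of Pu1 shRNA array 2 or 3. Runx1, a core hematopoietic factor, fell by 1.04 (adjusted p = 0.0374), and Cebpa, which encodes C/EBP alpha, fell by 0.81 (adjusted p = 0.0248). The Runx1 call was lost under 11 of 20 alternatives (adjusted p up to 0.179), among them the removal of EV array 2 or 3, Gata2 shRNA array 1 or 2 or any Pu1 shRNA array. The Cebpa call was lost under 10 (adjusted p up to 0.262), among them the removal of EV array 1 or 2, Gata2 shRNA array 2 or 3 or any Pu1 shRNA array.

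Among other eosinophil surface and lipid mediator genes, 4 of 12 tested rose and 2 fell with Gata2 shRNA, and 2 fell with Pu1 shRNA. Il1rl1, the IL-33 receptor carried by mast cells, basophils and eosinophils, fell by 3.23 on the log2 scale with Gata2 shRNA (adjusted p = 1.49e-05), against the direction of Prg2 and Epx. Its dimmer probes fell by less, from EV means of -0.004 and -3.42 to -2.81 and -4.61. Alox5, which starts leukotriene synthesis, fell by 2.20 (adjusted p = 4.43e-05), while Ltc4s, which makes leukotriene C4, rose by 1.32 (adjusted p = 0.00194). The integrin chains Itgam and Itgb7 rose by 1.57 (adjusted p = 0.00364) and 1.16 (adjusted p = 0.00385). With Pu1 shRNA Alox5 fell by 0.70 (adjusted p = 0.0306) and Alox5ap, which presents arachidonic acid to it, fell by 0.68 (adjusted p = 0.0481). Both of these calls were lost with any single array removed (adjusted p up to 0.28 and 0.397 over the alternatives).

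Lists of markers of other myeloid cells, which the line can also give rise to, are set beside these values. The summed linear level of the 7 eosinophil genes was 3.59 to 4.95 on EV arrays, 10.7 to 14 with Gata2 shRNA and 1.37 to 1.56 with Pu1 shRNA. Such a sum weights each gene by the brightness of its probe. Prg2 and Epx made up 71.1% to 77.2% of it on EV arrays and 83.7% to 87.4% with Gata2 shRNA, so there it mainly repeats those genes. With Pu1 shRNA they made up 37.5% to 50.7%, and Ccr3, which was not called, had a higher mean level (-0.83) than Prg2 (-1.10). Neutrophil granule markers summed to 236 to 267, 1100 to 1310 and 104 to 122 in the same groups, with 11 of 12 higher with Gata2 shRNA and 9 of 12 lower with Pu1 shRNA (5 to 11 under the alternatives). Their median change was 2.98 with Gata2 shRNA and -1.37 with Pu1 shRNA, beside 0.79 and -1.23 for the eosinophil genes. Monocyte and macrophage markers summed to 4.36 to 5.27 in EV, 25.8 to 29.9 with Gata2 shRNA and 3.08 to 3.99 with Pu1 shRNA, with 5 of 7 higher and then 1 of 7 lower (0 to 2 under the alternatives). Of these 5, Mrc1 was read well above background on the 3 Gata2 shRNA arrays alone and so entered the test through the group where it was high, and without it 4 of 6 were higher. Mast cell and basophil markers went the other way with Gata2 shRNA, from 111 to 128 in EV to 24 to 25.9, with 6 of 11 lower and 1 higher, and stood at 73.6 to 81.4 with Pu1 shRNA, with 3 lower (0 to 4 under the alternatives) and 2 higher. The counts are over the markers that passed the filter on dim probes. The part of such cells in the levels of Prg2, Prg3, Epx and Siglecf was not tested.

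**Figure D4:**
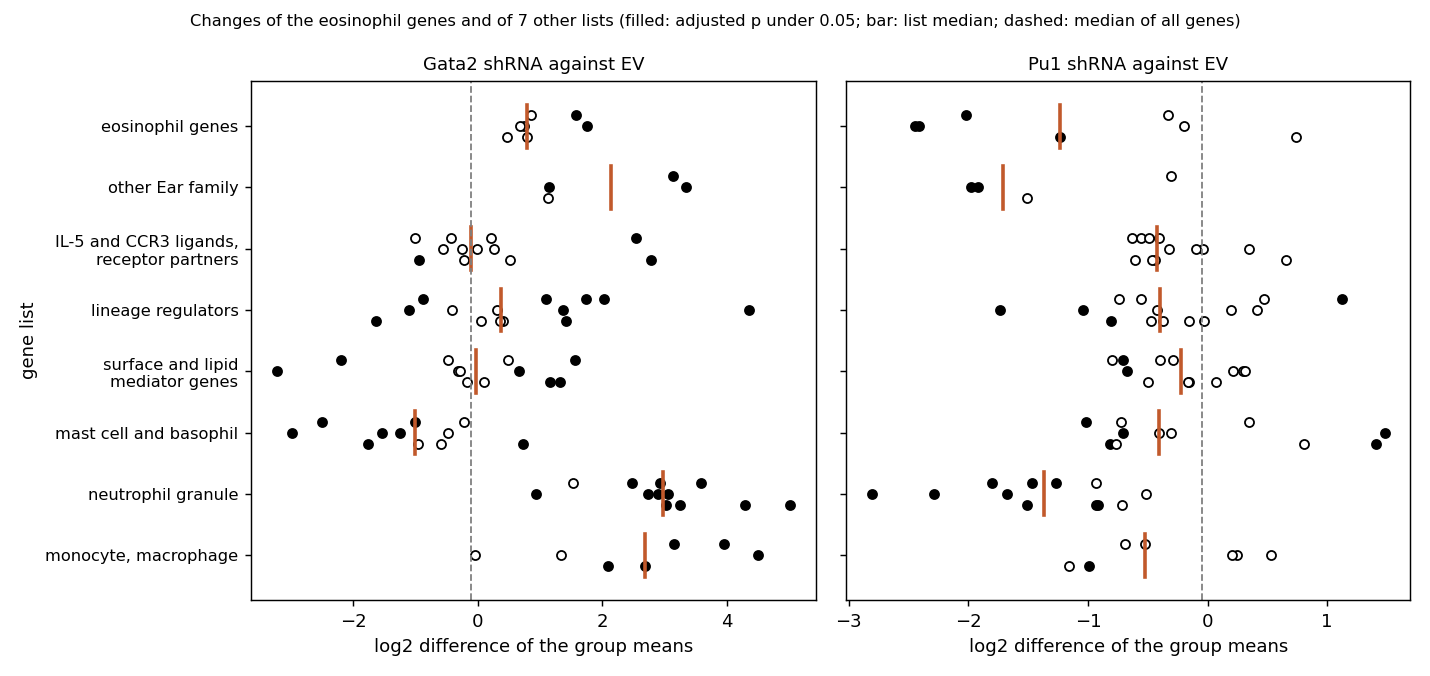
Log2 differences from EV (x axis) for every tested gene of the eosinophil list and of 7 other lists (y axis), with Gata2 shRNA in the left panel and Pu1 shRNA in the right panel. Filled points passed the adjusted p threshold of 0.05, bars mark list medians (0.79 and -1.23 for the eosinophil genes) and the dashed line is the median of all genes (-0.11 and -0.05), and the median of the neutrophil granule genes (2.98 and -1.37) lies on the same side as that of the eosinophil genes in both panels.

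The genes whose levels ran closest to each eosinophil gene over the 9 arrays are given as a description, since group and slide are shared by all points. Of 14459 candidate genes, those with provisional names (Gm and a number, Rik or LOC) were left out before the closest were taken. Among the rest, Prg2 was closest to Fcgr3, an IgG receptor of myeloid cells (Pearson r = 0.993), Myadm (0.993) and Cstdc6 (0.992). Epx was closest to Lilra6 (0.995), Ifi211 (0.994) and Antxr2 (0.991), and Prg3 to Nostrin (0.981), Antxr2 (0.979) and Map4k2 (0.977). Siglecf was closest to Ccl9, a myeloid chemokine (0.993), Fcgr2b, the inhibitory IgG receptor (0.993), and Idh1 (0.993). Ear1 was closest to Spic (0.979), B3gnt8 (0.973) and Gsta1 (0.97). Ccr3 had lower likeness to any of the genes kept, with Lcat at 0.927 and Clec4g and Os9 at 0.925. Il5ra was left out because 1 array did not read it well above background.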

How the data were processed

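The 9 samples were grouped by their titles into EV, Gata2 shRNA and Pu1 shRNA, 3 each. For each array the authors deposited scanner intensity values from Agilent Feature Extraction 10.1.1.1, not normalized between arrays. A deposited table of normalized log2 values correlated with the log2 median signal within each array (r of at least 0.997) and served as an alternative. Its medians were close between arrays (7.002 to 7.048). It differs from the main values in normalization as well as in background subtraction. The processed intensity is background-subtracted, so dim genes such as Il5ra and Ear1 depend on that step.

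From each log2 processed intensity the 75th percentile of its array was subtracted. Control spots were dropped, the 47 to 96 outlier-flagged spots of an array were set to missing, and repeated spots of a probe were averaged. Testing was limited to probes read well above background on 3 or more of the 9 arrays (with 50% or more of the spots of a repeated probe), which left 36585 of 41174. Accessions matched to RefSeq gene records (GRCm38.p6) named 23374 probes. The array design is on build mm8, so array positions were not used. A gene was represented by its probe of highest mean level. Comparisons used limma 3.58.1 under R 4.3.3 (group means over 9 arrays, eBayes, two-sided) and p-values were adjusted by Benjamini-Hochberg across the probes tested. The procedure was tested on simulated data drawn independently for each array and probe. These data held no slide effect, so the spread between slides was not covered. The small number of arrays limits the precision.

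The eosinophil genes and the gene lists were chosen with earlier results of these data known. Genes named outside them were the hairpin targets, up to 5 called genes with the largest change in each of the 4 related lists, and the 3 genes most alike to each eosinophil gene. Genes with provisional names were left out of the last choice. The values of Ear10, Il5, Gata1, Zfpm1 and Mrc1 were added after they were seen. Alternatives were a replicate or slide block, normexp correction, quantile or median scaling, other filters on dim probes or flagged spots, other eBayes settings, the deposited log2 values, fits of only the groups compared, a 2-fold minimum, the mean over probes and each array left out in turn.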

Additional observations from a re-analysis of the deposited data

How the results depend on the processing

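The 49 gene results were each run under 20 or 21 alternatives, which gave 998 values in all. Of these, 883 kept their direction and side of the threshold, 98 lost and 15 gained a call, and 2 reversed. Some of the 998 could not differ from the main fit, such as the mean over probes for a gene with 1 probe. The reversals were Il5ra for Pu1 shRNA against EV under quantile normalization (0.29, adjusted p = 0.903) and Ear1 for the same comparison without EV replicate 3 (0.185, adjusted p = 1). With 1 array left out, this Ear1 difference ranged from -0.753 to 0.185. The cause was not tested. Eosinophil genes called with Gata2 shRNA against EV rose from 2 to 4 with normexp correction, quantile normalization or the deposited log2 values, though not to the same 4 genes in each.

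Probes called for Gata2 shRNA against EV, Pu1 shRNA against EV and Gata2 against Pu1 shRNA numbered 1890, 962 and 3517, and genes called in the 7 other lists 44, 23 and 48. Array-median scaling gave 1191, 368 and 2266 probes and 11 list genes for Pu1 shRNA against EV. A 2-fold minimum gave 1092, 523 and 1891 probes and 15 such list genes. Fitting only the groups compared gave 1106 and 219 probes against EV and 9 list genes, the slide block 2924 and 1830 probes, and trend and robust eBayes and the deposited values 1565 and 1785 probes for Pu1 shRNA against EV. Same-numbered arrays did not deviate together (r from -0.552 to 0.652, above 0.1 in 4 of 9 pairs), so the numbers are not taken as pairs, and the replicate block gave 1167 and 227 probes against EV and 9 list genes for Pu1 shRNA. Arrays of the same slide did deviate together in most pairs (r from -0.041 to 0.719, above 0.1 in 8 of 9 pairs). The main fit had no slide term, so its p-values include the spread between slides.

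With 1 array left out, the eosinophil genes called ranged over 2 to 3, 3 to 4 and 4 to 6 in the 3 comparisons, probes over 1047 to 1697, 277 to 822 and 2211 to 3942, and list genes over 38 to 43, 11 to 17 and 43 to 49. The median change of all genes moved by less than 0.1 under every scaling tried.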
